A study of Mus musculus with 9 samples.

Results

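Mouse embryonic stem cells with a UTX knockout and those labelled MLL4 knockdown were set together against wild type cells, to find genes whose transcripts lay on the same side of wild type in all 6 perturbed libraries. Members were genes for which the CPM (read counts scaled to a common library size with TMM factors) of each of the 6 perturbed libraries was above, or of each was below, that of all 3 wild type libraries. Of 14772 genes tested, 2077 met this rule (14.1% of genes tested), 903 of them above wild type (6.11%) and 1174 below (7.95%). The rule reads the same libraries as the pooled test, so membership and the test are not independent of each other, and membership is given as a description.

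UTX, the product of the X-linked gene Kdm6a, removes methyl groups from lysine 27 of histone H3, a mark laid down by Polycomb. MLL4, the product of Kmt2d, methylates lysine 4 of histone H3 at enhancers and works in a complex that also holds UTX. Embryonic stem cells are pluripotent cells in culture, derived from the early embryo. In medium with serum and LIF they move between a naive state, kept by LIF and STAT3, and a formative or primed state that precedes differentiation.

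All 9 libraries came from male mouse embryonic stem cells grown on gelatin in medium with serum and LIF, without treatment, and were made with a TruSeq kit. The groups, of 3 libraries each, were UTX wild type from cells titled JM8A, UTX knockout titled A6, and MLL4 knockdown titled JM8A followed by a further number. All UTX knockout titles carry the same name A6, all MLL4 knockdown titles the same number, and the labels explain neither. A difference between lines or clones and the perturbation therefore cannot be told apart, and since no label names separate cultures, p-values cover only the variation among these libraries, which could be technical. Per the titles, lane 1 held replicate 2 of each group and lane 2 the others.

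Total counts lay between 18570746 and 23874816 per library. All 8 markers of embryonic stem cells checked were detected, at 41.7 to 2326 CPM over the 9 libraries. Kdm6a, the target of the knockout, stood at 89.0, 57.1 and 90.6 CPM in wild type, at 12.8, 16.9 and 19.4 CPM in the UTX knockout and at 113, 108 and 99.8 CPM in the libraries labelled MLL4 knockdown. It was low in the UTX knockout only and was no member (pooled log2 fold change -0.34, SE 0.76, edgeR adjusted p = 0.841). Kmt2d, the target of the knockdown, is listed under its older symbol Mll2 and stood at 86.2, 43.5 and 119 CPM in wild type, at 110, 96.9 and 130 CPM in the UTX knockout and at 71.0, 72.0 and 73.4 CPM in the libraries labelled MLL4 knockdown. The last group lay inside the wild type range (log2 fold change -0.11 against wild type, edgeR adjusted p = 0.719). It did so through wild type replicate 2 alone, and lay below wild type replicates 1 and 3 and every UTX knockout library. Wild type replicate 2 was low over the longest transcripts, as given below, and the part of this in the value was not tested. The transcript level therefore does not bear out the label and does not settle it.

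Wild type replicates 1 and 2 each stood apart from the other wild type libraries in ways that touch the members. Wild type replicate 1 was far lower than replicates 2 and 3 in keratins, the muscle actin Acta1 and several secreted proteins. Values are given with each gene below. Wild type replicate 2 had a median log2 deviation from the 9-library mean of 0.28 over genes with the shortest transcripts (20% of genes) and of -0.36 over those with the longest (20%), while the other 8 libraries stayed between -0.08 and 0.09. Members above wild type had a median transcript length of 3687 bases and those below 2908.5 bases, against 3023 over all tested genes with a length, and the part of the deviation of wild type replicate 2 in this was not tested.

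The pooled test compared the 6 perturbed with the 3 wild type libraries with the replicate number as a block. It called 646 genes at an adjusted p under 0.05 (4.37% of genes tested), 195 of them higher in the perturbed libraries (1.32%) and 451 lower (3.05%). Of these, 178 higher and 411 lower genes were members, and 76 and 256 of them changed more than 2-fold. The count rested on each wild type library: it was 199 without replicate 1, 14 without replicate 2 and 21 without replicate 3. Leaving out a wild type library also left its replicate block with perturbed libraries alone, so that block no longer entered the contrast. Lane 2 alone gave 6 calls, all lower, with 700 genes higher and 1140 lower at an unadjusted p under 0.05, and lane 1 holds 1 library a group, which allows no test. None of the 646 genes changed sign in any of these 4 fits in which it was tested. The fits reuse libraries that gave the calls, so a kept sign is no separate support.

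Of 104 called genes named here, 47 passed without wild type replicate 1, 6 without replicate 2, 9 without replicate 3 and 3 in lane 2 alone. Ddx3y, Palld and Uty passed in every alternative fit in which they were tested. Of the called genes, 57 were not members, because 1 or more libraries overlapped (17 higher, 40 lower), and 1488 members were not called (725 above, 763 below). At the edge of the rule, Gcap14 was just inside, with a highest wild type value of 79.31 CPM and a lowest perturbed value also of 79.31 CPM that differed beyond the digits shown, and Slc35f5 just outside, with 9.245 against 9.241 CPM. Below wild type, Zfp961 was just inside, at 52.46 CPM in the lowest wild type and 52.45 CPM in the highest perturbed library, and Rnf14 just outside, at 65.75 and 65.76 CPM.

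The members were spread unevenly over the chromosomes. On chromosome 8, 259 of 769 tested genes (33.7%) were below wild type in all 6 perturbed libraries and 2 were above. On chromosome 4, 173 of 966 (17.9%) were below and 36 above, and all 4 tested genes of the Y chromosome were below. Over the other 18 chromosomes 3.04% to 7.67% of tested genes were below and 4.45% to 9.66% above. Together, chromosomes 4, 8 and Y held 436 of the 1174 members below wild type (37.1%) and 38 of the 903 above (4.21%), with 11.8% of the genes tested.

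On chromosome 8 the median gene was at 75.5% of wild type in the pooled comparison (median log2 fold change -0.41, against 0.02 over all genes tested). Its median log2 deviation from the 9-library mean was 0.25, 0.30 and 0.26 in the 3 wild type libraries, between -0.17 and -0.12 in the UTX knockout and between -0.12 and -0.11 in the libraries labelled MLL4 knockdown. The wild type libraries all lay above every perturbed library, while the perturbed groups overlapped each other.

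**Figure D1:**
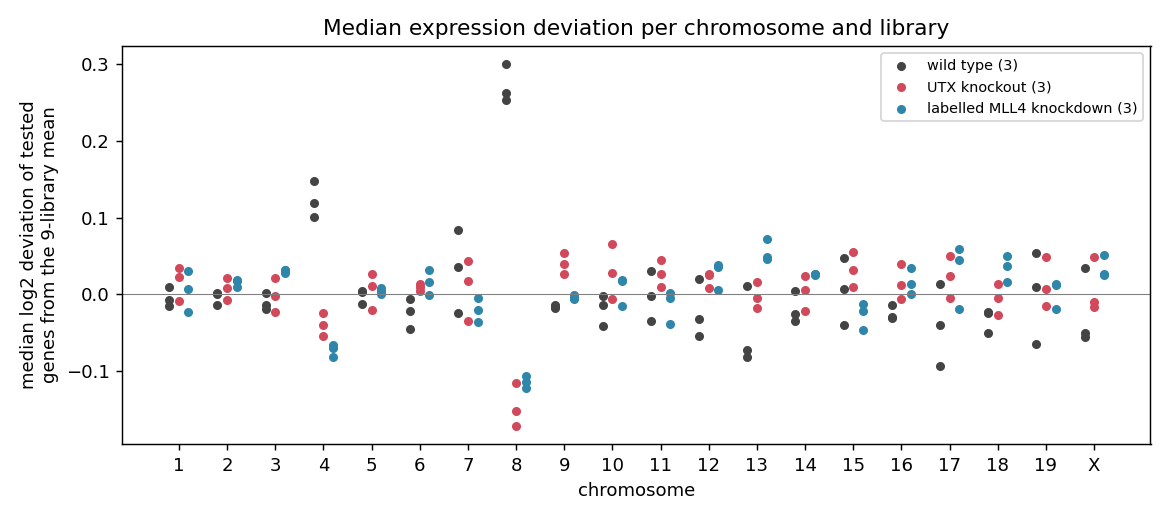
Median log2 deviation of tested genes from the 9-library mean (y axis) for each chromosome (x axis) and library (1 point each; 3 per group). The Y chromosome, with 4 tested genes, is left off. The 3 wild type points of chromosome 8 (0.25 to 0.30) and chromosome 4 (0.10 to 0.15) sit above all 6 perturbed points.

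The lowering ran along the whole of chromosome 8 and along part of chromosome 4. With the tested genes of each chromosome cut by their order into 8 parts, 26.0% to 40.6% of genes were below wild type in every part of chromosome 8. On chromosome 4 the share was 20.7%, 37.2%, 30.6% and 21.7% in the first 4 parts and 6.67% to 9.92% in the last 4. Median log2 fold changes of the second part of chromosome 4 were -0.46 for the UTX knockout and -0.40 for the libraries labelled MLL4 knockdown, each against the same wild type libraries. RNA alone was measured, and DNA copy number was not analysed here.

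**Figure D2:**
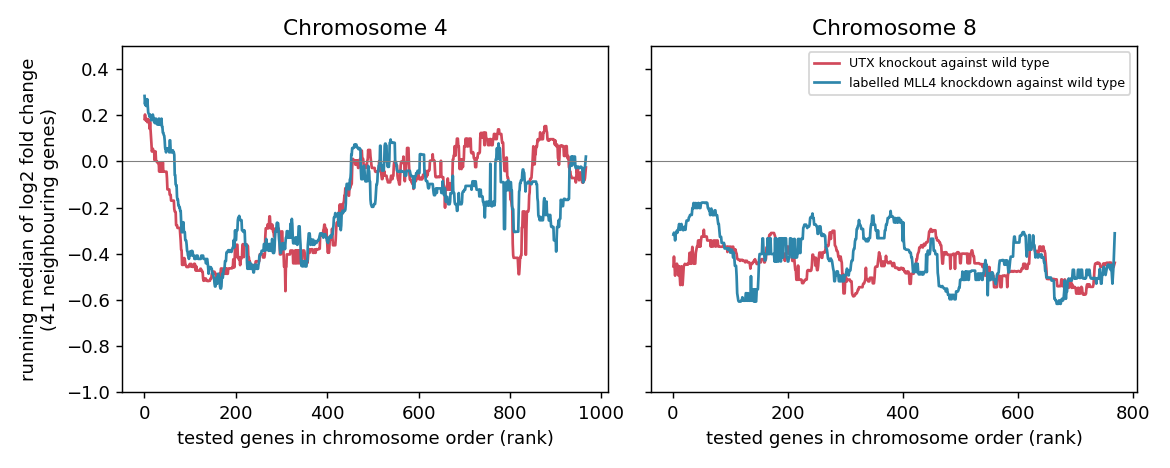
Running median of the log2 fold change against wild type over 41 neighbouring tested genes (y axis) by gene order (x axis) on chromosomes 4 and 8, for each perturbed group. Both lines lie below 0 along chromosome 8 and along the first part of chromosome 4 after its start. Beyond the middle of chromosome 4 they lie nearer 0 over most of the genes, with a second dip in both. Nearer its end a further dip, to -0.39, appears for the libraries labelled MLL4 knockdown alone.

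Outside chromosomes 4, 8 and Y the members were nearly even in direction: 865 of 13033 genes were above wild type (6.64%) and 738 below (5.66%). Calls outside them were 185 higher (1.42%) and 274 lower (2.1%). The chromosome is given below for each member on 4, 8 or Y.

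All 4 tested Y-linked genes fell, although the cells are male per the labels. Uty, the Y-linked relative of Kdm6a, stood at 16.8, 9.67 and 15.7 CPM in wild type and at 0.724 to 1.13 CPM in the perturbed libraries (log2 fold change -3.92, SE 0.22, edgeR adjusted p = 0.000566). Ddx3y, an RNA helicase, stood at 26.1, 13.6 and 17.5 CPM against 1.25 to 2.70 CPM (-3.25, SE 0.21, edgeR adjusted p = 0.000605). Eif2s3y, a translation initiation factor subunit, and Ube1y1, a ubiquitin-activating enzyme, were lower too, with highest perturbed values of 0.344 and 0.245 CPM. None of the 7 tested X-linked partners of Y genes was called or was a member: edgeR gave 0 at an unadjusted p under 0.05, and DESeq2 called 0. The X and Y copies are near-identical in part, so the reads of these pairs are uncertain.

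Promoter windows are shown for 5 members, chosen with their values known, to set their sequence beside their values below: the muscle actin Acta1, the calponin Cnn1 and the keratin Krt8, which fell, and the matrix protein Tgfbi and the growth factor Pdgfc, which rose. Each line holds the 250 bases before the annotated start, from RefSeq on GRCm38.p6, read in the gene's direction. They lie at chr8:123894776-123895025 on the minus strand (Acta1), chr9:22099003-22099252 on the plus strand (Cnn1), chr15:102004343-102004592 on the minus strand (Krt8), chr13:56609336-56609585 on the plus strand (Tgfbi) and chr3:81036166-81036415 on the plus strand (Pdgfc). Capitals mark matches, on either strand, to the CArG box (the 10-base site of serum response factor) and to 3 other motifs. These were the core promoter element TATAAA, the motif GGAATG of the TEAD family that works with YAP, and the motif TGACTCA bound by Jun and Fos.
Acta1: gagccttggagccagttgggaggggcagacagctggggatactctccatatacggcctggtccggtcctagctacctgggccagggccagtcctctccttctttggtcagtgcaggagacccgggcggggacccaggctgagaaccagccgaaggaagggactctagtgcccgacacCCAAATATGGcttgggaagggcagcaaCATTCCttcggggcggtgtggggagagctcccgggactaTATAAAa
Cnn1: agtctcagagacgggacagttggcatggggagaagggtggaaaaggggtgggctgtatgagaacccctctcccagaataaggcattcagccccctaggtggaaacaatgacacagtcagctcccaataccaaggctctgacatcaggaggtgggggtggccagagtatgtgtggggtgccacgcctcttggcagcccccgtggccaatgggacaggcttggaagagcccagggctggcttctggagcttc
Krt8: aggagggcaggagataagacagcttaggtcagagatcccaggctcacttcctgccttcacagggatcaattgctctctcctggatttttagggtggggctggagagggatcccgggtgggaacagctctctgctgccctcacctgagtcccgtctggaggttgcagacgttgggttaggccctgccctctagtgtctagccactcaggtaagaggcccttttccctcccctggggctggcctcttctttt
Tgfbi: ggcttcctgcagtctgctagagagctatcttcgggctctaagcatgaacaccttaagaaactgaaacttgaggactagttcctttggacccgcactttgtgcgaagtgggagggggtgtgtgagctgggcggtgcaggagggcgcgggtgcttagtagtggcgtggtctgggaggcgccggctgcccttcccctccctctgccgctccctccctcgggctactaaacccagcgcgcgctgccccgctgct
Pdgfc: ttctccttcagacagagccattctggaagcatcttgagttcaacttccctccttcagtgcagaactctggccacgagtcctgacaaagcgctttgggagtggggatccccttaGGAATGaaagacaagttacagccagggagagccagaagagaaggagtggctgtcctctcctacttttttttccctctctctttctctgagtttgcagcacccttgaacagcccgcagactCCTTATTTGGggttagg
The windows of Acta1 and Pdgfc each hold 1 CArG box. In their 300 bases, 1.57% of all 27025 promoters of the table hold this box, and 1.27% of those of tested genes. Both also hold GGAATG or its reverse complement (14.6% of all promoters, 12% of those of tested genes). That of Acta1 holds TATAAA (14.2% of all promoters, 6.96% of those of tested genes). No searched motif stood in the windows of Cnn1, Krt8 and Tgfbi. The table has no promoter for Tagln. It matched 75.4% of tested genes and between 70% and 78.7% of each set of members, and motif shares over the members are not given here.

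The falls are described next, beginning with 1 of the largest among called members of mean log2 CPM at least 2. Acta1, skeletal muscle actin on chromosome 8, stood at 2.44, 42.8 and 34.4 CPM in wild type, at 0.245, 0.476 and 0.697 CPM in the UTX knockout and at 0.646, 0.679 and 0.797 CPM in the libraries labelled MLL4 knockdown. All 6 lay below the lowest wild type library, replicate 1, which itself was far below the other two (log2 fold change -5.07, SE 0.58, edgeR adjusted p = 0.00566). Replicate 1 was also the lowest wild type library for Thbs1, thrombospondin 1, at 10.8, 52.6 and 78.8 CPM. In the perturbed libraries Thbs1 lay between 0.736 and 7.16 CPM (-3.80, SE 0.84, edgeR adjusted p = 0.0431).

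Keratins of simple epithelium fell together. Krt8 stood at 19.7, 211 and 170 CPM in wild type, at 9.18, 11.8 and 16.9 CPM in the UTX knockout and at 13.4, 12.6 and 12.0 CPM in the libraries labelled MLL4 knockdown (-3.10, SE 0.51, edgeR adjusted p = 0.0179). Its partner Krt18 stood at 28.7, 231 and 184 CPM in wild type and at 9.23 to 24.1 CPM in the perturbed libraries (-3.12, SE 0.48, edgeR adjusted p = 0.0137). Krt7 stood at 4.15, 32.3 and 26.2 CPM and at 1.31 to 3.95 CPM (-2.93, SE 0.50, edgeR adjusted p = 0.0185). In each, wild type replicate 1 lay just above the highest perturbed library and replicates 2 and 3 several-fold higher.

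Over all genes tested, 1.32% were called higher and 3.05% lower, and 6.11% were members above and 7.95% members below. These are the shares to set beside the counts of each list below. Of 18 tested keratin and junction genes, 5 were called lower, 0 higher and 9 were members below wild type. Their median log2 fold change was -1.10, against 0.02 over all genes. For the count of 0, edgeR at an unadjusted p under 0.05 and DESeq2 gave 0 as well. The other called members were Dsp, the desmosomal plaque protein desmoplakin (-2.02), and Cgn, the tight junction protein cingulin (-0.99). The same keratins are 3 of the 16 tested trophectoderm markers and the only 3 called there. In bulk libraries, fewer cells of a type and less RNA per cell cannot be told apart. The summed level of all 18 trophectoderm markers was 250.2 to 810.3 CPM in wild type and 249.6 to 335 CPM in the UTX knockout. It was 157 to 186 CPM in the libraries labelled MLL4 knockdown. The sum includes these 3 keratins, which made up much of it in wild type replicates 2 and 3. It therefore does not measure such cells apart from the keratins, and their part in the keratin result was not tested.

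Targets of YAP, TEAD and serum response factor, which follow cell tension and serum, held the largest number of called genes of the 43 lists: 9 of 22 were lower and 1 higher, with 10 members below and 1 above and a median of -0.99. Tagln, the actin-binding protein transgelin, stood at 31.2, 158 and 103 CPM in wild type and at 6.72 to 20.7 CPM in the perturbed libraries (-2.74, SE 0.36, edgeR adjusted p = 0.00882). Cnn1, calponin 1, stood at 8.15, 8.95 and 7.70 CPM in wild type, at 2.99, 2.03 and 3.16 CPM in the UTX knockout and at 1.94, 1.22 and 1.06 CPM in the libraries labelled MLL4 knockdown (-2.02, SE 0.35, edgeR adjusted p = 0.0201). Here the wild type libraries lay close together and the groups did not overlap.

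The tropomyosins Tpm1 (-1.54) and, on chromosome 4, Tpm2 (-1.08), the calponin Cnn2 (-0.91), the receptor tyrosine kinase Axl (-3.05) and the matricellular protein Cyr61 (-1.51) were lower as well. Cyr61 stood at 109, 113 and 117 CPM in wild type, at 21.9 to 25.3 CPM in the UTX knockout and at 53.6 to 57.1 CPM in the libraries labelled MLL4 knockdown. The perturbed groups themselves differed for it (edgeR adjusted p = 2.22e-05). The called gene in the other direction was Wwtr1, which encodes the co-activator TAZ (0.71, SE 0.12, edgeR adjusted p = 0.0203).

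The called formative and primed pluripotency genes were all lower. Of 17 tested, 6 were called lower, 0 higher (0 also at an unadjusted p under 0.05 in edgeR, and 0 by DESeq2), and 8 were members below wild type, with a median of -0.42. Otx2, a transcription factor of the formative state, stood at 40.8, 23.5 and 24.5 CPM in wild type, at 6.82, 3.72 and 4.13 CPM in the UTX knockout and at 1.72, 0.996 and 0.797 CPM in the libraries labelled MLL4 knockdown (-3.29, SE 0.55, edgeR adjusted p = 0.0185). The 3 groups did not overlap, and wild type replicate 1 was the highest library. Dnmt3b, a DNA methyltransferase that acts on unmethylated sites, stood at 523, 254 and 301 CPM in wild type, at 152, 110 and 108 CPM in the UTX knockout and at 104, 72.9 and 66.5 CPM in the libraries labelled MLL4 knockdown (-1.77, SE 0.21, edgeR adjusted p = 0.00592).

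Dnmt3a, its relative, fell by 0.82 on the log2 scale (SE 0.17, edgeR adjusted p = 0.0334), and these were the 2 called genes of 13 tested for DNA methylation. Fgf5, a growth factor that marks the primed epiblast, stood at 4.62, 0.98 and 1.61 CPM in wild type and at 0 to 0.491 CPM in the perturbed libraries (-3.47, SE 0.58, edgeR adjusted p = 0.0185). The zinc finger factor Sall2 (-1.21) and the POU factor Pou3f1 (-1.03, chromosome 4) were also called.

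Naive pluripotency genes moved in both directions: 5 of 20 were called higher and 4 lower, with 7 members above and 4 below and a median of 0.52. Tfcp2l1, listed as Tcfcp2l1, a transcription factor downstream of LIF, stood at 162, 206 and 352 CPM in wild type, at 537, 728 and 630 CPM in the UTX knockout and at 853, 986 and 833 CPM in the libraries labelled MLL4 knockdown (1.71, SE 0.26, edgeR adjusted p = 0.0143). Prdm14, a repressor of differentiation, lay between 16.4 and 21.1 CPM in wild type and between 29.1 and 55.2 CPM in the perturbed libraries (1.20, SE 0.22, edgeR adjusted p = 0.0223). The T-box factor Tbx3 (0.97) and Zfp57, a zinc finger protein that guards imprints (0.80), were higher too.

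In the other direction, Dppa3 (Stella), a maternal and germ cell protein, stood at 38.2, 39.7 and 25 CPM in wild type, at 14.7, 10.3 and 10.5 CPM in the UTX knockout and at 3.77, 3.62 and 3.32 CPM in the libraries labelled MLL4 knockdown (-2.14, SE 0.49, edgeR adjusted p = 0.047). The 3 groups did not overlap. Fbxo15, an F-box protein of pluripotent cells, fell by 0.97 on the log2 scale, and Zfp42 (Rex1) on chromosome 8 by 0.62. The LIF receptor Lifr was higher (1.02, SE 0.16, edgeR adjusted p = 0.0153), as was the transcription factor Stat3 that it activates (0.52, SE 0.11, edgeR adjusted p = 0.0381). They were the 2 of 14 LIF and STAT3 genes called, and the list held 4 members above and 1 below.

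The core pluripotency list had 2 of 16 tested genes called, both lower, and a median of -0.07. They were the RNA-binding protein Lin28a on chromosome 4 (-0.64, SE 0.10, edgeR adjusted p = 0.0164) and Dppa2, a chromatin protein of pluripotent cells (-0.82, SE 0.15, edgeR adjusted p = 0.0235). Of 13 tested genes of the 2-cell-like state, which a small share of stem cells enters, 7 were called lower. The list held 5 members below wild type, with a median of -2.05. Its median was -3.10 for the UTX knockout and -1.58 for the libraries labelled MLL4 knockdown, and 11 genes differed between these groups. The 14 listed markers with counts summed to 291 to 338 CPM in wild type and 225 to 269 CPM in the UTX knockout. In the libraries labelled MLL4 knockdown they summed to 273 to 365 CPM, which was not lower than wild type. The deubiquitinase gene Usp17l5 lay between 3.45 and 6.44 CPM in wild type and between 0.418 and 2.64 CPM in the perturbed libraries (-2.24, SE 0.34, edgeR adjusted p = 0.0132). Zscan4e was called without being a member, since its lowest wild type value of 1.41 CPM lay under its highest perturbed value of 1.51 CPM (-2.05, SE 0.42, edgeR adjusted p = 0.0327). These families have near-identical copies, so their counts are uncertain.

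Imprinted genes gave 4 calls among 32 tested, all lower. H19, a maternally expressed non-coding RNA, stood at 11.9, 39.2 and 37.1 CPM in wild type, at 1.37, 1.43 and 1.90 CPM in the UTX knockout and at 0.484, 0.543 and 0.487 CPM in the libraries labelled MLL4 knockdown (-4.70, SE 0.49, edgeR adjusted p = 0.00432). Its neighbour Igf2, a growth factor expressed from the other allele, stood at 19.9, 164 and 224 CPM in wild type and at 6.23 to 20.6 CPM in the perturbed libraries (-2.76, SE 0.50, edgeR adjusted p = 0.0217). Wild type replicate 1 lay inside the perturbed range, so Igf2 was no member. Phlda2, a growth regulator of the placenta (-1.18), and Snrpn, a splicing protein (-0.70), made up the rest, and the median of the list was -0.07.

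The 15 largest rises held genes of varied function. Tex13, an X-linked testis gene, stood at 0.415, 0.341 and 0.403 CPM in wild type, at 10.5, 8.82 and 8.45 CPM in the UTX knockout and at 4.09, 4.25 and 5.71 CPM in the libraries labelled MLL4 knockdown (4.15, SE 0.47, edgeR adjusted p = 0.00552). The 3 groups did not overlap, and the libraries of each lay close together. Vax2, a homeobox factor of the ventral eye, stood at 0.0519, 0.895 and 0.806 CPM in wild type and at 4.91 to 11.2 CPM in the perturbed libraries (3.81, SE 0.49, edgeR adjusted p = 0.00855). Nkx6-3, a homeobox factor on chromosome 8 and 1 of its 2 members above wild type, stood at 0.260, 3.37 and 3.67 CPM and at 8.74 to 18.2 CPM (2.78, SE 0.48, edgeR adjusted p = 0.0194).

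Secreted and surface proteins were among the rises as well. Pdgfc, a ligand of PDGF receptors, stood at 7.37, 12.2 and 10.7 CPM in wild type, at 41.6, 40.6 and 34.1 CPM in the UTX knockout and at 62.6, 62.3 and 56.0 CPM in the libraries labelled MLL4 knockdown (2.30, SE 0.28, edgeR adjusted p = 0.00674). Its receptor Pdgfra lay between 1.02 and 1.51 CPM in wild type and between 2.37 and 7.97 CPM in the perturbed libraries and was a member without a pooled call (2.03, SE 0.54, edgeR adjusted p = 0.0727). Ntn1, the guidance cue netrin 1, stood at 26.1, 45.9 and 65.3 CPM in wild type and at 105 to 266 CPM in the perturbed libraries (1.98, SE 0.36, edgeR adjusted p = 0.0217).

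Msln, the surface protein mesothelin, rose from 1.35, 7.46 and 6 CPM to 13.6 to 80.9 CPM (3.26, SE 0.53, edgeR adjusted p = 0.0175). Mras, a small GTPase of the RAS family, rose from 8.15, 24.1 and 22.7 CPM to 39.8 to 114 CPM (2.19, SE 0.48, edgeR adjusted p = 0.042). In Vax2, Nkx6-3, Msln and Mras, wild type replicate 1 was several-fold below the other wild type libraries. The rest of the 15 were Igsf21 and Grik3 on chromosome 4, Tgfbi, Tfcp2l1, Lix1l, Accsl, Ccdc141 and Ly75, with log2 fold changes of 1.57 to 1.89.

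**Figure D3:**
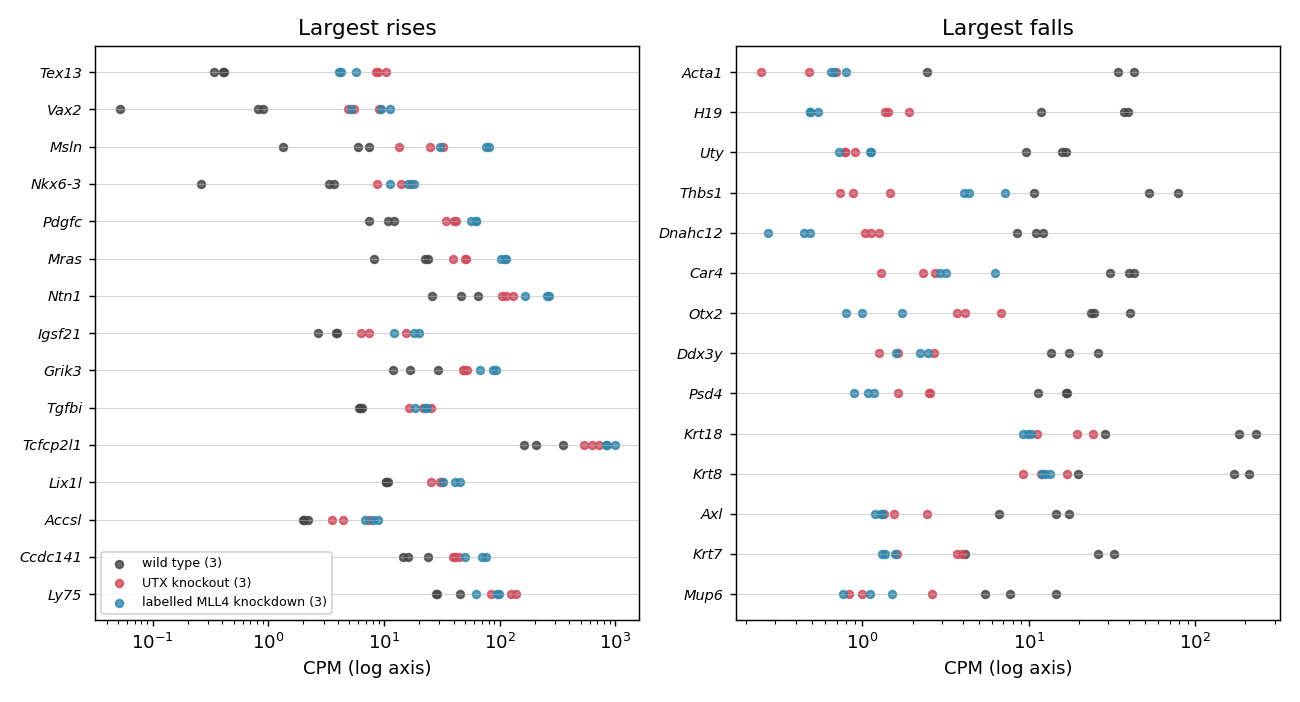
CPM (x axis, log scale) of the 15 largest rises (left) and 14 of the 15 largest falls (right) among called members of mean log2 CPM at least 2, 1 point per library and 3 libraries per group. In each row the 3 wild type points lie on the same side of all 6 perturbed points; for Krt7, Krt8 and Krt18 1 wild type point (4.15, 19.7 and 28.7 CPM) lies next to the perturbed points.

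Other falls among the 15 largest were in an enzyme, a dynein and an exchange factor. Car4, a membrane carbonic anhydrase, stood at 30.7, 42.6 and 40.1 CPM in wild type and at 1.30 to 6.29 CPM in the perturbed libraries (-3.69, SE 0.37, edgeR adjusted p = 0.00398). Dnah12, an axonemal dynein listed as Dnahc12, stood at 8.47, 11 and 12.1 CPM and at 0.272 to 1.25 CPM (-3.76, SE 0.43, edgeR adjusted p = 0.00566). Psd4, an exchange factor of ARF6, stood at 11.4, 16.8 and 16.9 CPM and at 0.886 to 2.55 CPM (-3.21, SE 0.36, edgeR adjusted p = 0.00549). Mup6, a major urinary protein gene on chromosome 4, fell by 2.81 on the log2 scale, and it belongs to a cluster of near-identical copies, so its counts are uncertain.

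Matrix genes moved in both directions. Of 27 tested matrix and integrin genes 3 were called higher and 4 lower, with a median of -0.04. Fn1, fibronectin, lay between 821 and 1444 CPM in wild type and between 1811 and 2582 CPM in the perturbed libraries (0.93, SE 0.18, edgeR adjusted p = 0.027). The basement membrane genes Nid1 (nidogen 1; 1.33, SE 0.26, edgeR adjusted p = 0.0297) and Lama1 (laminin alpha 1; 1.21, SE 0.25, edgeR adjusted p = 0.0371) were higher too. The integrin subunits Itga3 (-1.29) and, on chromosome 8, Itgb1 (-0.76) were lower.

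Fibroblast collagens were low throughout. Col1a2 stood at 0.623, 6.65 and 5.28 CPM in wild type and at 0 to 0.62 CPM in the perturbed libraries (-4.10, SE 0.68, edgeR adjusted p = 0.0185). Col1a1 stood at 1.19, 8.35 and 10.2 CPM in wild type and at 0.807 to 1.49 CPM in the perturbed libraries, which overlapped (-2.22, SE 0.48, edgeR adjusted p = 0.0406). Col6a1, another collagen, was lower as well (-2.25). Of 12 tested feeder and fibroblast markers 4 were called lower and 1 higher. Without Fn1 and Vim, which lay at 51.4 CPM or more in every library, the 15 markers summed to 67.6 to 267 CPM in wild type, 31.4 to 54.7 CPM in the UTX knockout and 36.7 to 39.3 CPM in the libraries labelled MLL4 knockdown. Lum was at 0 in all 9 libraries, and the part of such cells in the falls above was not tested.

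The called genes of cholesterol synthesis and uptake were all higher. Of 21 tested, 4 were called higher and 0 lower (0 lower also at an unadjusted p under 0.05 in edgeR, and 0 by DESeq2), and 8 were members above wild type, with a median of 0.50. They include the sterol enzymes Sc5d (0.71, SE 0.15, edgeR adjusted p = 0.0381), Hsd17b7 (0.67) and Nsdhl (0.47). Scd1, a fatty acid desaturase outside this list, stood at 94.6, 59.2 and 85.6 CPM in wild type, at 165, 214 and 217 CPM in the UTX knockout and at 166, 210 and 217 CPM in the libraries labelled MLL4 knockdown (1.31, SE 0.18, edgeR adjusted p = 0.00962).

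Of 20 Nodal, activin and TGF-beta genes 2 were lower, with a median of 0.15. Of 18 retinoic acid genes 3 were lower, among them the retinoid-degrading enzyme Cyp26a1 (-1.90) and the receptor Rxrg (-1.72), and 7 were members below. Of 17 FGF and ERK genes 3 were lower: Fgf5, the receptor Fgfr1 on chromosome 8 (-0.63) and the ERK phosphatase Dusp5 (-0.98). Of 11 Hedgehog genes the effector Gli1 was called higher (0.64), though it was no member, and Gli2 was a member without a call (1.94, SE 0.54, edgeR adjusted p = 0.0831).

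Of 17 Wnt genes the ligand Wnt3 was lower (-2.40), at under 1.5 CPM in every library. Of 17 primitive endoderm genes Lama1 was higher and Hnf4a, a nuclear receptor, was lower (-4.69), at under 1.5 CPM in every library. That list held 4 members above wild type and 2 below, with a median of 0.51. At an unadjusted p under 0.05 in edgeR, 7 of its genes were higher and 2 lower. The neural adhesion molecule Ncam1 was higher (1.06) and the tubulin Tubb3 on chromosome 8 lower (-1.15). Among annexins and S100 proteins 3 of 15 were lower, Anxa3, Anxa5 and Anxa8, of which the first pair overlapped wild type replicate 1.

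Among p53 targets, the ribonucleotide reductase subunit Rrm2b (1.55) and the receptor Eda2r (0.83) were higher, 2 of 18. Among interferon and antigen genes, Oasl2 (-3.07) and, on chromosome 4, the RNA sensor Ddx58 (-1.04) were lower, 2 of 19. The ribosomal protein gene Rps6 on chromosome 4 (-0.73) was the called gene of 22. Other single calls were the germline homeobox gene Rhox9 (-1.98, 1 of 20) and the sulfiredoxin Srxn1 (0.62, 1 of 17 glutathione and NRF2 genes). The stress protein Herpud1 on chromosome 8 (-0.80, 1 of 20) and the immediate early factor Klf6 (-0.70, 1 of 15) were further ones. Over all genes tested 4.37% were called in either direction. A single call in a list of 15 to 22 genes is near that share and is no result about the list. The receptor Kit was higher (0.63), and with Pdgfc and Igf2 made the 3 calls among 16 receptor tyrosine kinase ligands and receptors. Blood and endothelial markers had 0 calls of 9 in edgeR, with 3 at an unadjusted p under 0.05 and 1 by DESeq2, and summed to 103 to 258 CPM over the 9 libraries.

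Of 19 tested COMPASS and H3K27 demethylase genes, the MLL4-associated co-activator Ncoa6 was higher (0.63, SE 0.13, edgeR adjusted p = 0.0361) and Uty lower, and 3 were members above wild type. The core subunits Wdr5 (0.39, edgeR adjusted p = 0.051) and Rbbp5 (0.53, edgeR adjusted p = 0.0555) were the other members above. Polycomb (17 tested), and p300/CBP co-activators with SWI/SNF (14 tested), had 0 calls in edgeR, with 3 each at an unadjusted p under 0.05 and 0 by DESeq2.

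The BMP list (15 tested) had 0 calls in edgeR, with 4 at an unadjusted p under 0.05 and 2 higher by DESeq2. The G2 and M phase list (16 tested) had 0 calls, with 6 higher at an unadjusted p under 0.05 and 2 higher by DESeq2, and 5 members above. The lists for hypoxia and glycolysis, lysosome, S phase and Hox genes had 0 calls in edgeR, with 2, 1, 2 and 0 genes at an unadjusted p under 0.05 and 1, 1, 2 and 0 calls by DESeq2.

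**Figure D4:**
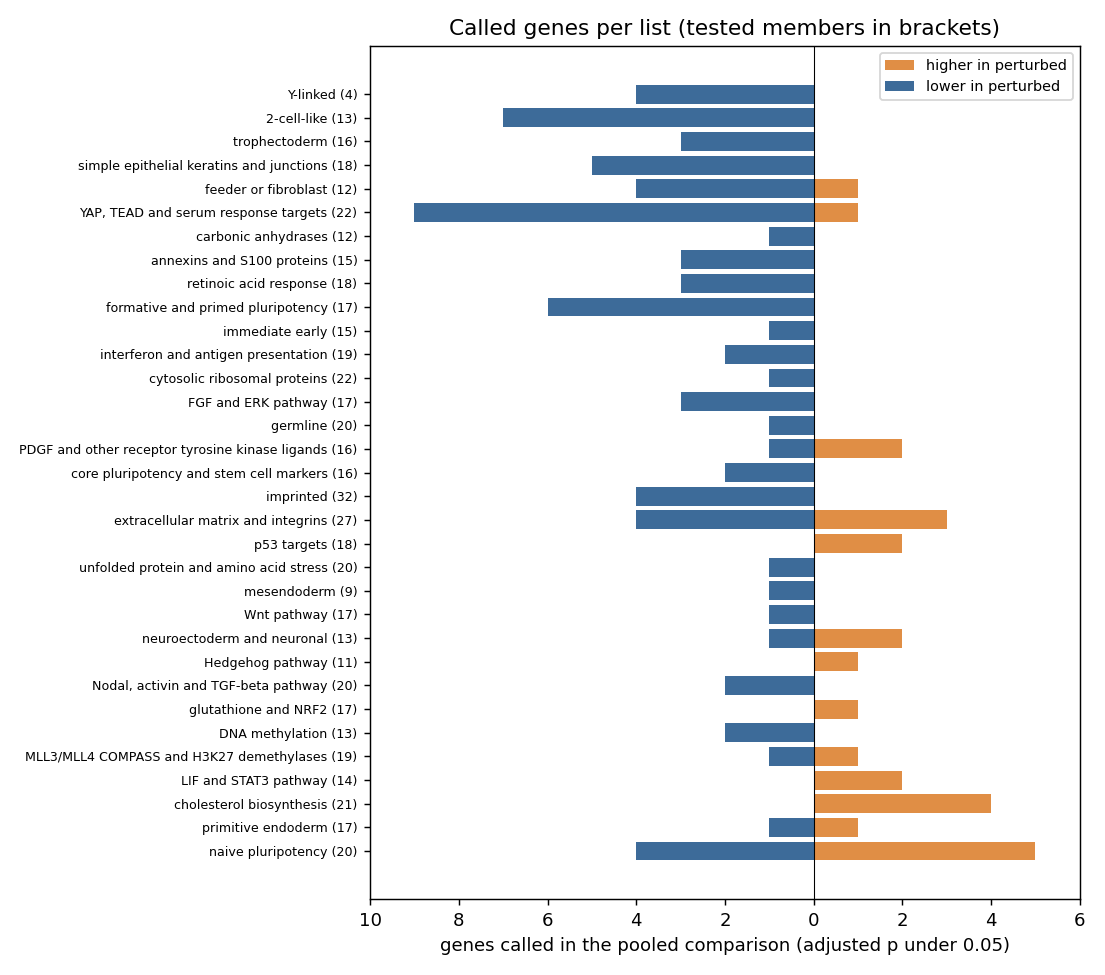
Number of genes called in the pooled comparison (x axis) in each list with at least 1 call (y axis, tested members in brackets, ordered by median fold change); bars to the right are higher in the perturbed libraries and bars to the left lower. YAP, TEAD and serum response targets have 9 lower, 2-cell-like genes 7 and formative genes 6, and naive genes have 5 higher.

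The contrast between the 2 perturbed groups was not part of the rule, which keeps genes with both groups on the same side of wild type. Its estimate compares those groups, and the wild type libraries enter the block and the spread of the same fit. Over all tested genes 5417 differed between them (36.7%). Of the 903 members above wild type 161 did (17.8%), 109 of them higher in the libraries labelled MLL4 knockdown and 52 higher in the UTX knockout. Of the 1174 members below 357 did (30.4%), with 98 and 259 in the same order. No test was made of these shares. Against the same wild type libraries, the median log2 fold change of members above was 0.50 for the UTX knockout and 0.55 for the libraries labelled MLL4 knockdown, and of members below -0.79 and -0.92. Each group on its own gave 3446 (23.3%) and 5037 (34.1%) calls.

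**Figure D5:**
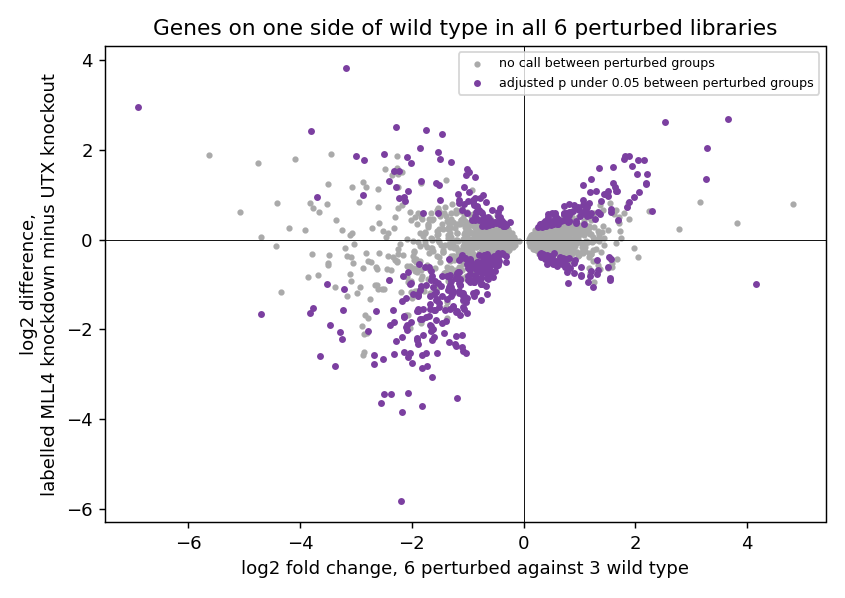
Log2 difference between the perturbed groups (y axis; labelled MLL4 knockdown minus UTX knockout) against the pooled log2 fold change (x axis) for the 2077 members; coloured points differ between the groups at an adjusted p under 0.05. Among members below wild type, 259 coloured points lie on the side where the libraries labelled MLL4 knockdown are lower and 98 on the other.

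Among called members of mean log2 CPM at least 2 that changed more than 2-fold, the ones most alike in the 2 groups were Scd1, Tgfbi, Olfml2b, Sema5b, Cdkn1b and Atp1b1 for the rises. Tgfbi stood at 6.23, 6.09 and 6.49 CPM in wild type, at 16.4, 25.2 and 21.7 CPM in the UTX knockout and at 18.4, 22.6 and 23.7 CPM in the libraries labelled MLL4 knockdown (1.75, SE 0.16, edgeR adjusted p = 0.00247). Cdkn1b, the cell cycle inhibitor p27, lay between 34.8 and 45.6 CPM in wild type and between 56.9 and 115 CPM in the perturbed libraries (1.10, SE 0.13, edgeR adjusted p = 0.00674). Atp1b1, a subunit of the sodium pump, lay between 70.3 and 106 CPM and between 167 and 258 CPM (1.22, SE 0.10, edgeR adjusted p = 0.00153).

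For the falls they were Palld, Tpm2, Phlda2, Itga3, Lrrc15 and Serpinh1. Palld, the actin-bundling protein palladin on chromosome 8, stood at 49.2, 33.8 and 49.2 CPM in wild type, at 15.3, 12.0 and 14.7 CPM in the UTX knockout and at 15.2, 13.6 and 12.9 CPM in the libraries labelled MLL4 knockdown (-1.64, SE 0.13, edgeR adjusted p = 0.00153). Its fall was larger than the median of -0.41 of its chromosome. Serpinh1, the collagen chaperone HSP47, stood at 166, 259 and 256 CPM in wild type and at 76.9 to 120 CPM in the perturbed libraries (-1.26, SE 0.12, edgeR adjusted p = 0.00273). Differences between the perturbed groups for these 12 genes had edgeR adjusted p-values of 0.682 or more, which does not show that the groups act alike.

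The same set of called members was used next, of mean log2 CPM at least 2 and changed more than 2-fold. Those that differed most between the groups were, among rises, Msln, Mras, Tex13, Ntn1, A2m and Rrm2b. A2m, a protease inhibitor, stood at 52.0, 131 and 116 CPM in the UTX knockout and at 30.7, 64.2 and 61.9 CPM in the libraries labelled MLL4 knockdown, against 21, 25.4 and 26.6 CPM in wild type. Mras, Msln and Ntn1 were higher in the libraries labelled MLL4 knockdown than in the UTX knockout, and A2m, Rrm2b and Tex13 were lower there. Among falls they were Thbs1, Otx2, Dppa3, H19, Slc40a1 and Dnahc12. Slc40a1, the iron exporter ferroportin, stood at 4.96, 4.50 and 3.53 CPM in the UTX knockout and at 2.26, 1.04 and 1.15 CPM in the libraries labelled MLL4 knockdown, against 12.4, 14.8 and 16.2 CPM in wild type. Of these 6, Thbs1 was lower in the UTX knockout and the other 5 were lower in the libraries labelled MLL4 knockdown.

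Members above wild type were expressed at a median of 5.24 log2 CPM and members below at 3.01, against 4.37 over all tested genes. The share of genes above rose with transcript length from 2.49% among the shortest 20% of genes to 8.74% among the longest 20%, the length classes in which wild type replicate 2 deviated most. The share below was between 5.6% and 10.2% over the 5 length classes.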

How the data were processed

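The authors deposited raw read counts per gene symbol, 1 column per library, and all 9 columns matched a library by title. Per the submitters' processing notes, which assign no roles, the tools were STAR 2.4 and HTSeq 0.6.1 and the builds hg19 and mm9. The annotation and strand setting were not given in the sources used here, so antisense partners cannot be told apart. Of 33924 genes 24396 had a count and 14772 passed filterByExpr. CPM used TMM factors. Tests were two-sided quasi-likelihood tests in edgeR 4.0.16 (R 4.3.3) with Benjamini-Hochberg adjustment over all tested genes, on all 9 libraries: 6 perturbed against 3 wild type with the replicate number as a block, and 1 term per group with the same block. Fold changes are log2 values. Each SE is the size of the fold change divided by the square root of its quasi-likelihood F statistic. In a check of whether the numbers pair libraries, deviations from group means correlated at 0.168 to 0.467 in 9 same-numbered pairs and at -0.412 to 0.226 in 18 others.

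The members and the 43 gene lists were chosen with earlier results of these data known. Named genes were the targets with Uty; the 15 largest rises and falls among called members of mean log2 CPM at least 2; the 6 most and 6 least alike per direction; the 5 widest gaps per direction; up to 4 members of smallest p per list; and genes at the edge of the rule. Pou3f1, Zfp42, Zfp57, Cnn1, Cyr61, Tpm1, Wwtr1, Dsp and Col1a1 were named after their values were seen. Chromosome, gene order and transcript length came from the GRCm38 annotation, and promoters from RefSeq. Coordinates are given for the 5 promoter windows alone. Every pair of replicates differed by more than sampling noise. Alternatives were other scaling, DESeq2 1.42.0, filters, no block, lane 2 alone, each library left out, and, chosen after seeing the data, a removed length trend and chromosomes 4, 8 and Y left out. Some genes that the rule names are not reported here.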

Additional observations from a re-analysis of the deposited data

Results flagged for a closer look

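Some named genes differed between the 2 perturbed groups by more than 1 on the log2 scale with an edgeR adjusted p under 0.05 in the direct comparison of 3 against 3 libraries, although most lay on the same side of wild type in both. Values are the libraries labelled MLL4 knockdown minus the UTX knockout. Kdm6a, the target of the knockout, differed by 2.71. Higher in the libraries labelled MLL4 knockdown were Thbs1 (2.43), Gli2 (1.64), Pdgfra (1.46), Msln (1.36), Zscan4e (1.27), Mras (1.24) and Cyr61 (1.21). Lower there were Otx2 (-2.07), Fgf5 (-1.91), Wnt3 (-1.90), Dppa3 (-1.72), H19 (-1.67), Slc40a1 (-1.57), Dnahc12 (-1.51) and Psd4 (-1.09). Fgf5 and Wnt3 lay at or under 0.491 CPM in all 6 perturbed libraries.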

How the results depend on the processing

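With the replicate block dropped, the pooled comparison gave 916 calls in place of 646, and UTX knockout against wild type gave 2285 (968 higher) in place of 3446. With replicate means removed, 3312 genes did not overlap (1501 above, 1811 below) in place of 2077, and fitting 1 term per group with the block gave 3832 pooled calls (1488 higher, 2344 lower). A DESeq2 Wald test called 1516 (624 higher, 892 lower). The stricter filter, which tests fewer genes, gave 415 calls (273 lower) and 710 genes below wild type. Lane 2 alone, with fewer samples, gave 6 pooled calls (0 higher by edgeR, with 700 at an unadjusted p under 0.05; 6 lower) and 2181 for the UTX knockout (922 higher, 1259 lower). Removing the length trend gave 301 higher pooled calls, and leaving out chromosomes 4, 8 and Y gave 274 lower calls and 738 genes below.

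Leaving out 1 library at a time gave 14 to 482 pooled calls (3 to 156 higher, 11 to 330 lower), 1605 to 4072 for the UTX knockout (683 to 1957 higher, 922 to 2115 lower), and 3108 to 5087 for the labelled MLL4 knockdown (1110 to 2150 higher). It gave 3209 to 6966 between the perturbed groups (1346 to 3379 higher, 1863 to 3587 lower), and 2157 to 3431 genes without overlap (950 to 1552 above, 1207 to 1879 below). The cause of these moves was not tested. No gene among the 646 changed sign in any alternative fit in which it was tested. The genes were called from the same libraries that these fits reuse, so a kept sign is no separate support. Of the named genes Kmt2d (Mll2), not called, changed sign, to -0.082 in lane 2 alone and -0.082 without wild type replicate 2, with 0.49 as its highest value when a library was left out. Genes of a few counts, such as Hnf4a and Wnt3, are limited by depth.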
